A study of Mus musculus with 2 samples.

Results

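The 5 genes described here handle vitamin A outside the nucleus: Rbp4, Stra6, Crabp1, Crabp2 and Lrat. They were picked by symbol, for what they are known to do, from the 32285 genes that both count matrices list, and all 5 were found. Single-cell RNA-Seq was made from quadriceps and gastrocnemius muscle of 24-month-old female C57Bl/6J mice. The hindlimb muscles of the ATRA+agonist mice received 3 rounds of injections of all-trans retinoic acid (ATRA) with CD3254, an agonist of the retinoid X receptor alpha (RXR-alpha), and BMS961, an agonist of the retinoic acid receptor gamma (RAR-gamma). The mice of the control group received the DMSO vehicle on the same schedule. Cells of 2 mice were pooled per group after sorting and sequenced as 1 library, so the mice cannot be separated and no difference below has a replicate check. No p-value is given for this reason, and the 95% intervals are exact intervals that cover counting error only.

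Retinol, the transport form of vitamin A, leaves the liver bound to RBP4, the retinol carrier of blood. STRA6 is a membrane receptor that takes retinol from RBP4 into cells, and LRAT esterifies retinol for storage, as in the stellate cells of the liver. Retinoic acid made from retinol is bound in the cytoplasm by CRABP1 and CRABP2, of which CRABP2 is known to pass it to nuclear receptors and CRABP1 is tied to its breakdown and to other signaling. Lrat, Stra6 and Crabp2 are known to be raised by retinoic acid in some cell types. In muscle, retinoids act on myogenic progenitors and on the mesenchymal and vascular cells between the fibers.

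The deposited matrices held 10444 ATRA+agonist and 17394 DMSO vehicle barcodes, and 6907 and 6953 of them were kept as cells. The kept cells fell into 25 clusters, and 11 classes named by their markers had at least 20 cells in each library. A cluster was named where at least 3 markers of a cell type were enriched in it at least 2-fold, and the 5 genes and the other retinoid genes listed below were left out of the genes used for clustering. Levels are given as CPM, the UMIs of a gene per 1000000 UMIs of all cells of a class in 1 library. Of the barcodes, 43 occurred in both libraries, 9 of them among kept cells. An endothelial-like cluster led by the interferon-induced genes Gbp4, Cd274 and Ubd held 103 ATRA+agonist and 1076 DMSO vehicle cells, which bears on Lrat below.

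All 5 are protein-coding genes of GRCm38, by gene identifier in GENCODE M21. Stra6 (ENSMUSG00000032327) lies at chr9:58063788-58153996 on the plus strand, and its longest coding transcript has 19 exons. Crabp1 (ENSMUSG00000032291) lies at chr9:54764748-54773110 on the plus strand with 4 exons. Crabp2 (ENSMUSG00000004885) lies at chr3:87948666-87953376 on the plus strand, also with 4 exons. Lrat (ENSMUSG00000028003) lies at chr3:82892579-82903973 on the minus strand with 2 exons, and the antisense gene Rbm46os covers all 5351 bases of its transcript. Rbp4 (ENSMUSG00000024990) lies at chr19:38116629-38125281 on the minus strand with 6 exons. No stretch of 50 bases of their coding transcripts was shared with a transcript of another gene, so that Crabp1 and Crabp2 reads can be told apart.

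RAR and RXR bind pairs of a 6-base core, and the spacing of 5 bases between the cores is the classical response element of retinoic acid. The sequences below are shown because the injected compounds act through such elements. They are from RefSeq (GRCm38.p6) and run 5′ to 3′ on the strand of the gene. The 2 short repeats lie within the 250 bases before a start, and the 3 longer sequences are all of those 250 bases. Of the 5 genes, 4 were in the promoter table, with 8 starts in all, and Crabp2 was not. The cores searched were AGGTCA, then GGGTCA, next AGTTCA and lastly GGTTCA, on both strands. The capitals mark them, and in the last line the TATAA motif.
Rarb, chr14:16575513-16575529, minus strand: GGTTCAccgaaAGTTCA
Cyp26a1, chr19:37697776-37697792, plus strand: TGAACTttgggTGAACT
Stra6, chr9:58128838-58129087, plus strand: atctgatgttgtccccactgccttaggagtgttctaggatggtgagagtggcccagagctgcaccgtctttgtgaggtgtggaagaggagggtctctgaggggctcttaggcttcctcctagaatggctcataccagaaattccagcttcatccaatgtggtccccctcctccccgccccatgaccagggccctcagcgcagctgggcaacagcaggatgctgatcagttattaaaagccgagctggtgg
Rbp4, upstream start, chr19:38125322-38125571, minus strand: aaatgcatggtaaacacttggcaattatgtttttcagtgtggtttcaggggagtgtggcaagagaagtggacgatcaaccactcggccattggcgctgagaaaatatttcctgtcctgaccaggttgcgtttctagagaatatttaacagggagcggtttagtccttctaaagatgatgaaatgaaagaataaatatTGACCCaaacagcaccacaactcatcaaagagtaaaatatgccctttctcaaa
Rbp4, downstream start, chr19:38124812-38125061, minus strand: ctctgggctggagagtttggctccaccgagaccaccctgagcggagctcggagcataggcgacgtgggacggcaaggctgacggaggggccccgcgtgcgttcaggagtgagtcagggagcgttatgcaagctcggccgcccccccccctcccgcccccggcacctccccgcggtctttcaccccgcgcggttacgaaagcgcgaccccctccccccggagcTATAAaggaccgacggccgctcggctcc

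Among the 250 bases before each of 32851 starts, 0.0883% held a direct repeat of the cores spaced by 5 bases, and none of the 8 starts of the 5 genes did. Rarb and Cyp26a1, the textbook targets of retinoic acid, held the repeats shown. Direct repeats spaced by 1 base or by 2 bases were in 0.164% and 0.174% of windows and in none of the 8. A single core was in 38.6% of windows and, of the 8, in the upstream Rbp4 window alone. These counts describe the letters in these windows and say nothing of elements farther away.

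The 5 genes lay mainly in connective-tissue, nerve-sheath, tendon and endothelial classes, and none was highest in muscle stem cell-like (MuSC-like) cells. Rbp4 was the most abundant with 1294 UMIs in the kept cells and had most of its UMIs in cells with markers of fibro-adipogenic progenitors (FAP-like cells), the connective-tissue cells around muscle fibers. Stra6 (122 UMIs) was highest in perineurial-like cells, the cells that sheathe nerve bundles, Crabp1 (131 UMIs) in tenocyte-like cells, and Crabp2 (184 UMIs) in perineurial-like cells. Lrat (144 UMIs) had most of its UMIs in endothelial-like cells. Per UMI of the class, Lrat was higher still in perineurial-like cells with vehicle. Rbp4 with ATRA+agonist was at 69.3 CPM (36.9 to 119) in perineurial-like cells, an interval that overlaps that of FAP-like cells. Of 15296 genes with at least 100 UMIs, 13.8% were highest in the same class in both libraries and at least 2-fold above the next class. Stra6, Crabp1 and Crabp2 met this description, and Rbp4 and Lrat did not.

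**Figure D1:**
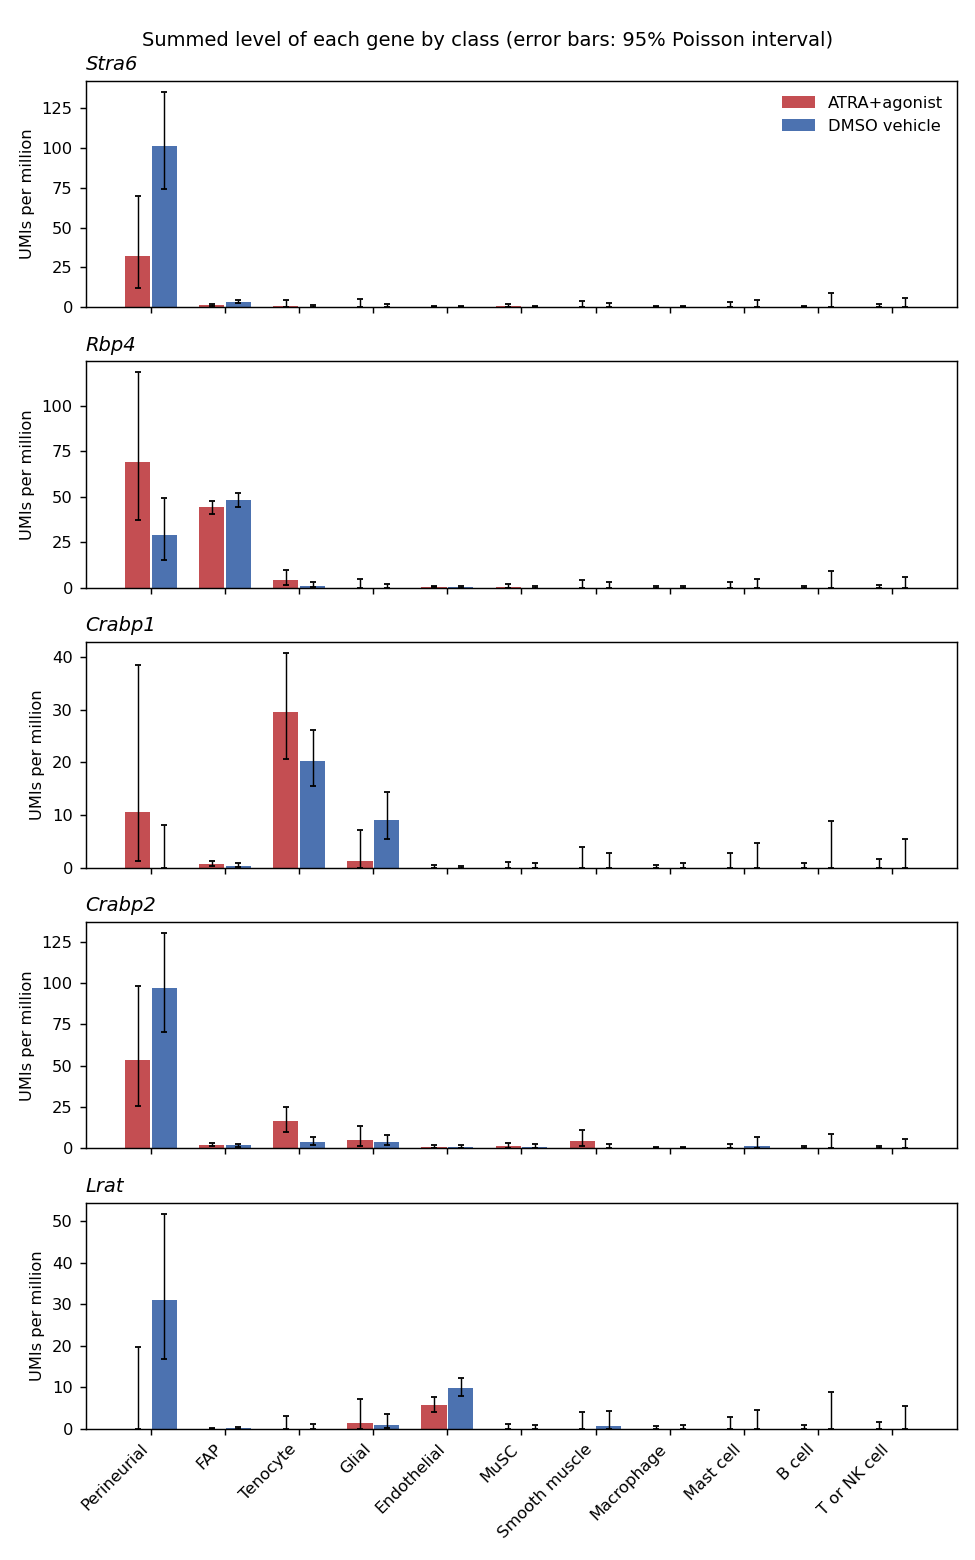
Level of each gene in 11 classes, as CPM of the class, with the ATRA+agonist library in red and the DMSO vehicle library in blue. Error bars are 95% Poisson intervals of 1 library each, and the 5 panels show that Stra6 and Crabp2 were highest in perineurial-like cells and Crabp1 in tenocyte-like cells of both libraries.

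Rbp4, the retinol carrier, was a gene of FAP-like cells in both libraries. It had 598 UMIs in 1342 FAP-like cells with ATRA+agonist and 657 UMIs in 1648 cells with vehicle, or 96.6% and 97.3% of its UMIs. The level was 44.1 CPM (95% interval 40.7 to 47.8) with ATRA+agonist and 48.1 CPM (44.5 to 51.9) with vehicle. The log2 ratio of ATRA+agonist to vehicle was -0.12 (-0.29 to 0.04), and over all 16706 genes tested in these cells the median was 0.00. At least 1 Rbp4 UMI was seen in 22.7% and 21.7% of FAP-like cells, against 0.0784% and 0.0401% of endothelial-like cells, which serve as the background. Median depth was 9792.5 and 7973.5 UMIs in FAP-like cells. After thinning each cell to 1000 UMIs, which left out 1 cell per library, the shares were 3.95% (2.97% to 5.14%) and 4.37% (3.44% to 5.47%).

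Within the FAP-like class the level of Rbp4 varied over 4 clusters. It was lowest in cluster 7, led by Sema3c and Pi16, with 19.4 CPM in each library, and the interval of cluster 7 overlapped that of no other FAP-like cluster. In cluster 1, led by Cxcl14 and Smoc2, it was 49.0 CPM (43.7 to 54.6) with ATRA+agonist and 65.1 CPM (58.7 to 71.9) with vehicle, a log2 ratio of -0.41 (-0.63 to -0.19). In cluster 5, led by Gdf10 and Fst, it was 59.7 CPM (51.4 to 69.0) and 45.02 CPM (38.7 to 52.0), a log2 ratio of 0.41 (0.10 to 0.71). The differences in clusters 1 and 5 thus had opposite directions, and neither reached 2-fold. Cluster 23, led by Tenm2, Apod and Sbspon, had 24 and 28 UMIs of Rbp4, or 81.1 and 61.7 CPM, with a log2 ratio of 0.39 (-0.45 to 1.23).

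Stra6, the receptor for RBP4-bound retinol, was found mainly in perineurial-like cells and in cluster 23 of the FAP-like class. Perineurial-like cells had 6 UMIs in 84 ATRA+agonist cells and 46 UMIs in 134 vehicle cells, or 32.0 CPM (11.7 to 69.6) and 101 CPM (74.3 to 135). With cells assigned by their own markers instead of by cluster, only 11 ATRA+agonist and 58 vehicle cells were perineurial-like. Cluster 23 had 12 UMIs in 38 cells and 40 UMIs in 60 cells, or 40.5 CPM (20.9 to 70.8) and 88.1 CPM (62.9 to 120). The next class after perineurial-like cells was lower by 22.8-fold with ATRA+agonist and by 29.5-fold with vehicle. That class was the FAP-like class, and outside cluster 23 the other FAP-like clusters together had 7 UMIs in each library. Stra6 was thus carried mainly by 2 small populations that formed separate clusters in this clustering and share Tenm2 among their leading genes. The separation depended on the filters. At a doublet rate of 15% the perineurial-like class held 161 and 214 cells, and the FAP-like share of Stra6 UMIs fell in both libraries.

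In MuSC-like cells, the stem cells of the fiber, Stra6 was near the limit of detection. There were 2 UMIs in 414 ATRA+agonist cells and 0 UMIs in 530 vehicle cells, and a count of 0 among 530 cells allows a share of cells with a UMI of up to 0.566%. In endothelial-like cells there were 0 UMIs in 2551 cells and 1 UMI in 2493 cells. A difference of Stra6 in MuSC-like cells was not detectable at this depth.

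With the filter limits of the study and a doublet score rebuilt here, Stra6 was lower in the ATRA+agonist library in both of its populations. The log2 ratio was -1.66 (-3.18 to -0.43) in perineurial-like cells and -1.12 (-2.19 to -0.16) in cluster 23. Over the whole FAP-like class, with 19 and 47 UMIs, it was -1.29 (-2.15 to -0.50), where 5.33% of all genes tested were at least 2-fold lower and 2.22% higher. Without cluster 23 it was 0.00 (-1.74 to 1.74), from 7 and 7 UMIs, so the class value rests on that cluster. Without the hemoglobin filter it was 0.13 (-1.61 to 1.87), also from 7 UMIs in each library, which gives no direction. The FAP-like class then held 8.64% of the vehicle Stra6 UMIs, against 50% here. In cluster 23 itself 8.76% of 7923 genes were at least 2-fold lower. In perineurial-like cells 33.1% of 7499 genes were, with a median log2 ratio of -0.43, and the lower Stra6 level there is to be read against this share. The median depends on the count limit: over genes with at least 10 UMIs in each library it was 0.17. The 6 perineurial markers together were lower there as well, by a log2 ratio of -2.17. At a doublet rate of 15% the class of that name held 161 and 214 cells, and its Stra6 ratio turned to 0.037 (-1.06 to 1.10). FAP-like cells fell to 1134 and 1381 at that rate, from 1342 and 1648, so the classes did not hold the same cells.

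**Figure D2:**
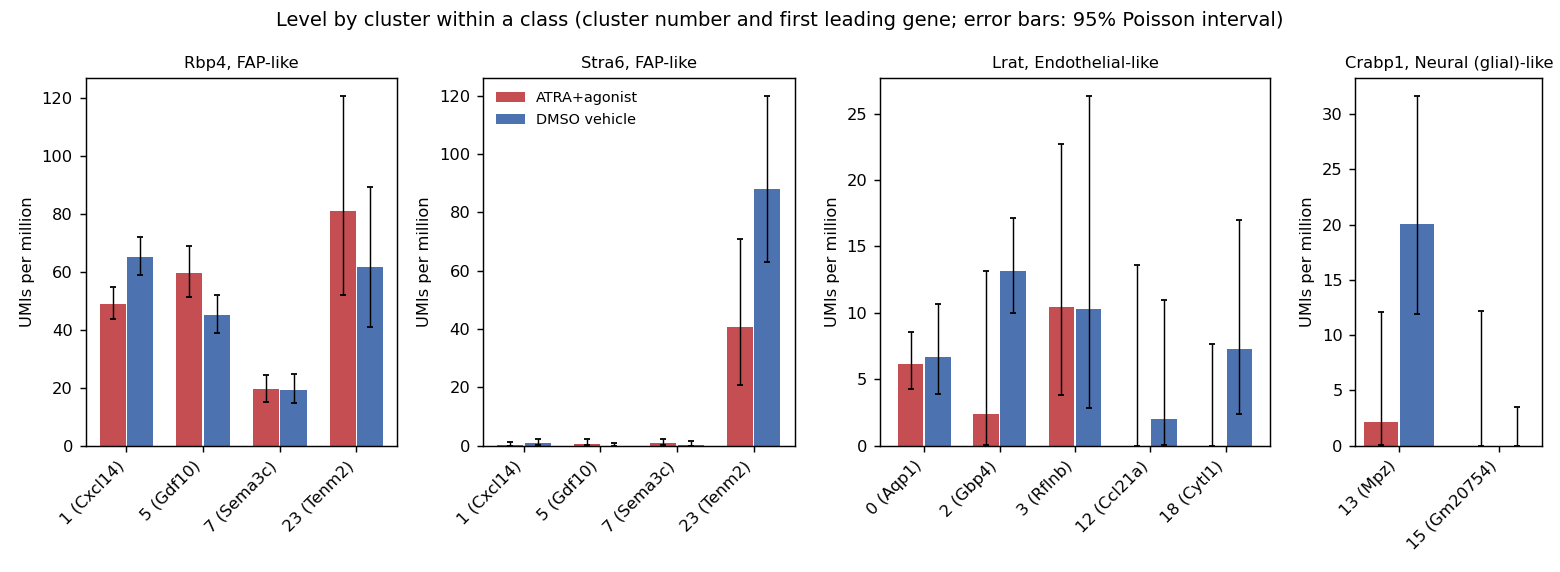
Levels by cluster for Rbp4 and Stra6 in FAP-like cells, Lrat in endothelial-like cells and Crabp1 in neural (glial)-like cells, as CPM of the cluster, with 95% Poisson intervals. Stra6 stood in cluster 23, Crabp1 in cluster 13, and Lrat in cluster 2 had 1 UMI with ATRA+agonist and 56 with vehicle.

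Crabp1, the cytoplasmic retinoic acid-binding protein, was highest in tenocyte-like cells. They held 36 of its UMIs with ATRA+agonist and 60 with vehicle, which is 75.0% (60.4% to 86.4%) and 72.3% (61.4% to 81.6%) of its UMIs. The level was 29.5 CPM (20.6 to 40.8) in 160 ATRA+agonist cells and 20.4 CPM (15.5 to 26.2) in 500 vehicle cells. The log2 ratio was 0.53 (-0.10 to 1.15), an interval that includes 0. The hemoglobin filter had removed a further 0 Crabp1 UMIs with ATRA+agonist and 18 with vehicle, from 357 and 1725 barcodes. Of the tenocyte-like cells 11.3% and 8.80% had a UMI, and of endothelial-like cells none of 2551 and none of 2493 did. Thinned to 1000 UMIs the shares were 2.55% (0.698% to 6.39%) and 1.20% (0.443% to 2.60%).

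In the vehicle library the other Crabp1 population was the neural (glial)-like cells, with 21.7% of its UMIs. FAP-like cells held 9 Crabp1 UMIs (18.75%) with ATRA+agonist and 5 with vehicle. Perineurial-like cells held 2 and 0. All 18 glial-like UMIs of the vehicle library and the 1 of the ATRA+agonist library were in cluster 13. That cluster had the potassium channel gene Kcna1 among its leading genes. The other glial-like cluster, led by Gm20754 and Csmd3, had 0. In cluster 13 the level was 2.17 CPM (0.0549 to 12.1) from 86 cells with ATRA+agonist and 20.02 CPM (11.9 to 31.6) from 204 cells with vehicle, a log2 ratio of -3.21 (-8.59 to -0.54). In this cluster 9.07% of 10313 genes were at least 2-fold lower. Over the glial-like class it was -2.81 (-8.19 to -0.15), where 8.46% of 11986 genes were at least 2-fold lower. A single cell held 5 of the 18 vehicle UMIs, and the ATRA+agonist level rests on 1 UMI.

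Crabp2, the binding protein that passes retinoic acid to its receptors, was the most widely spread of the 5 genes. It was highest in perineurial-like cells, at 53.3 CPM (25.6 to 98.1) with ATRA+agonist and 97.0 CPM (70.5 to 130) with vehicle, from 10 and 44 UMIs. The log2 ratio there was -0.86 (-2.02 to 0.15). FAP-like cells held as many UMIs, 30 and 24, at only 2.21 and 1.76 CPM, with a log2 ratio of 0.33 (-0.49 to 1.17). The intervals of the vehicle levels in glial-like, tenocyte-like and FAP-like cells, from 4.07 to 1.76 CPM, overlapped each other in this order. MuSC-like cells had 5 and 4 UMIs, at 1.496 and 1.01 CPM.

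In tenocyte-like cells Crabp2 was higher in the ATRA+agonist library. It had 20 UMIs there, 16.4 CPM (10.0 to 25.3), and 11 UMIs with vehicle, 3.73 CPM (1.86 to 6.68). The log2 ratio was 2.13 (1.003 to 3.34), where 3.62% of 12786 genes were at least 2-fold higher and 8.38% lower. The 20 UMIs came from 6 cells, and 1 cell held 11 of them. Without the cell with the most UMIs in each library, an alternative chosen after seeing the data, 9 and 9 UMIs remained and the log2 ratio was 1.30 (-0.21 to 2.81). The share of tenocyte-like cells with a UMI was 3.75% (1.39% to 7.98%) and 1.80% (0.826% to 3.39%), and these intervals overlap.

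Lrat, the enzyme of retinyl ester formation, lay in endothelial-like cells, with 41 UMIs (97.6% of its UMIs) with ATRA+agonist and 83 (81.4%) with vehicle. The level was 5.61 CPM (4.03 to 7.61) from 2551 cells and 9.90 CPM (7.89 to 12.3) from 2493 cells. The log2 ratio was -0.82 (-1.40 to -0.26), short of 2-fold. A Lrat UMI was seen in 1.22% (0.827% to 1.72%) and 2.37% (1.81% to 3.04%) of endothelial-like cells, and in 0 of 1342 and 2 of 1648 FAP-like cells. Thinned to 1000 UMIs, which left out 519 and 261 shallower cells, the shares were 0.492% and 1.08%.

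Among the endothelial-like clusters with at least 10 Lrat UMIs, the libraries differed by 2-fold in cluster 2 alone. The largest cluster, led by Aqp1, Kdr and Timp4, had 34 and 17 UMIs, or 6.12 CPM (4.24 to 8.55) and 6.67 CPM (3.88 to 10.7), a log2 ratio of -0.12 (-1.004 to 0.81). Cluster 3, led by Rflnb and Unc45b, had 6 and 4 UMIs, or 10.4 and 10.3 CPM. Cluster 18, led by Cytl1 and Nebl, had 0 and 5 UMIs. Cluster 2, led by the interferon-induced genes named above, had 1 UMI in 103 ATRA+agonist cells and 56 UMIs in 1076 vehicle cells, or 2.35 CPM (0.0596 to 13.1) and 13.2 CPM (9.95 to 17.1). In this cluster 11.2% of 11912 genes were at least 2-fold lower, and the log2 ratio of Lrat was -2.48 (-7.81 to 0.05). Without cluster 2, an alternative chosen after seeing the data, the class had 40 and 27 UMIs and a log2 ratio of -0.17 (-0.91 to 0.59).

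Perineurial-like cells also held Lrat. After doublet removal they had 14 UMIs, 30.9 CPM (16.9 to 51.8), with vehicle and 0 UMIs with ATRA+agonist, which allows up to 16.0 CPM. The vehicle value was 1.93-fold this limit of 3 counts, which leaves out the counting error of the vehicle value. With it, the interval of the log2 ratio had an upper end of -0.46. The 14 vehicle UMIs came from 7 of 134 cells. In these cells 33.1% of genes were at least 2-fold lower with ATRA+agonist, and so were their summed perineurial markers, given below. Without the doublet step at a resolution of 1.6, chosen after seeing the data, Lrat was found in both libraries, at 20.8 CPM with ATRA+agonist and 27.1 CPM with vehicle (log2 ratio -0.38, -2.46 to 1.31).

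**Figure D3:**
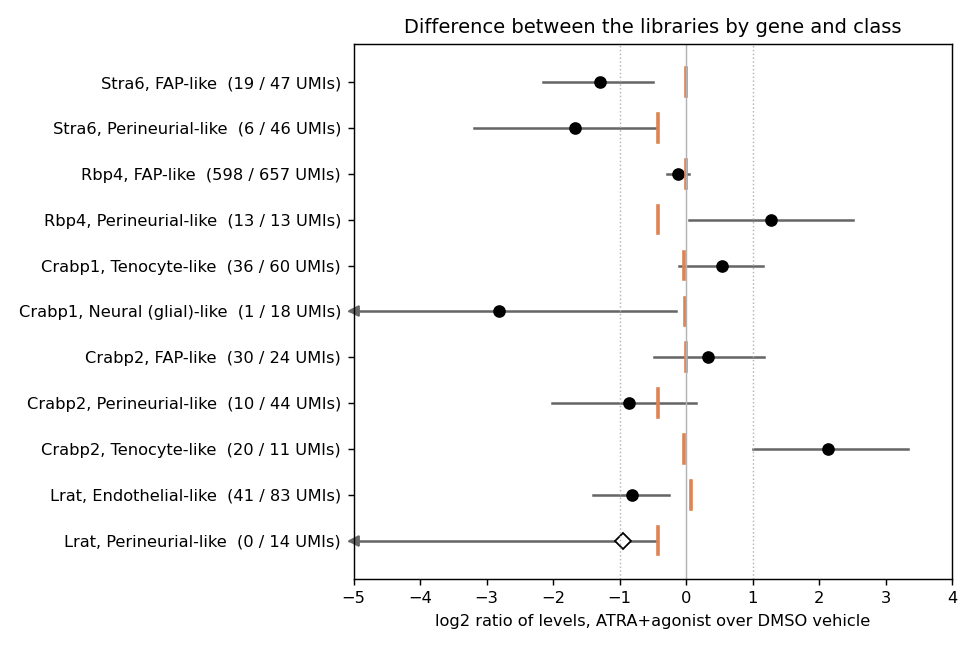
Log2 ratio of levels, ATRA+agonist over DMSO vehicle, for the genes and classes with at least 10 UMIs that the text describes, with UMIs of both libraries in brackets. Points are ratios, the open diamond is a limit from a count of 0, lines are 95% intervals that cover counting error only (arrows run on), and orange ticks are the medians over all genes of the class, between -0.43 in perineurial-like and 0.08 in endothelial-like cells.

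The perineurial-like class differed between the libraries in more than the retinoid genes. With ATRA+agonist it held 99 UMIs of perineurial markers and 3690 of FAP markers, and with vehicle 1074 and 7084. Whether the class held the same kinds of cells in both libraries was not tested, and its ratios are to be read with this limit. All 6 perineurial markers were lower in the ATRA+agonist cells, and their summed level was 528 CPM against 2368 CPM, a log2 ratio of -2.17 (-2.48 to -1.87). In the same cells 7 of the 8 FAP markers were higher and Dcn was nearly level, with a summed level of 19678 against 15620 CPM. The collagen gene Col3a1 was at 2549 and 368 CPM. Median depth was 1305.5 and 2056.5 UMIs per cell. Per 100 UMIs of the 6 markers there were 6.06 Stra6 UMIs with ATRA+agonist and 4.28 with vehicle, a log2 ratio of 0.50 (-1.02 to 1.73). For Crabp2 the same values were 10.1 and 4.10, a log2 ratio of 1.30 (0.15 to 2.31). Rbp4 had 13 UMIs in each library, 69.3 and 28.7 CPM, with a log2 ratio of 1.27 (0.05 to 2.50), where 8.25% of genes were at least 2-fold higher, and 6 of the 13 ATRA+agonist UMIs were in 1 cell. At a doublet rate of 15%, where the perineurial-like class held 161 and 214 cells, this Rbp4 ratio turned to -0.10 (-0.45 to 0.24). The part of the markers in these ratios was not tested.

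The doublet step, which removes barcodes that resemble pairs of cells, took out many Stra6 UMIs. It removed 29 UMIs in 14 barcodes of the ATRA+agonist library, against 28 UMIs that were kept, and 13 of these 14 barcodes had UMIs of at least 2 perineurial markers. In the vehicle library it removed 57 UMIs in 21 barcodes, 19 of them with at least 2 perineurial markers, against 94 that were kept. Crabp2 lost 27 UMIs in the ATRA+agonist library and 20 in the vehicle library, and Lrat lost 26 and 20. Among all barcodes with at least 2 perineurial markers, the step removed 51 and kept 67 in the ATRA+agonist library, and it removed 49 and kept 151 in the vehicle library.

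Without the doublet step and at the finer clustering resolution of 1.6, an alternative chosen after seeing the data, 1 cluster of 31 ATRA+agonist and 78 vehicle cells held the perineurial-like cells. Its median depth was 6230 and 5795 UMIs, its summed markers were at 2678 and 3215 CPM (log2 ratio -0.26, -0.41 to -0.12), and the median log2 ratio over 8214 genes was -0.01. In this cluster Stra6 had 24 and 75 UMIs, or 125 CPM (80.0 to 186) and 157 CPM (123 to 196). The log2 ratio was -0.33 (-1.05 to 0.35). Crabp2 had 27 and 57 UMIs, 140 and 119 CPM, with a log2 ratio of 0.24 (-0.48 to 0.92). Lrat had 4 and 13 UMIs there, at the levels given above. Rbp4 had 0 and 5 UMIs. A UMI of Stra6 was in 38.7% and 43.6% of these cells and one of Crabp2 in 32.3% and 28.2%. None of Stra6, Crabp2 and Lrat differed by 2-fold in these cells, and Rbp4 and Crabp1 had too few UMIs for a ratio, while 10.9% of genes were at least 2-fold lower and 6.76% at least 2-fold higher. The high level of Stra6 and Crabp2 in perineurial-like cells was seen with and without the step, and without it the intervals of their differences between the libraries included 0.

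**Figure D4:**
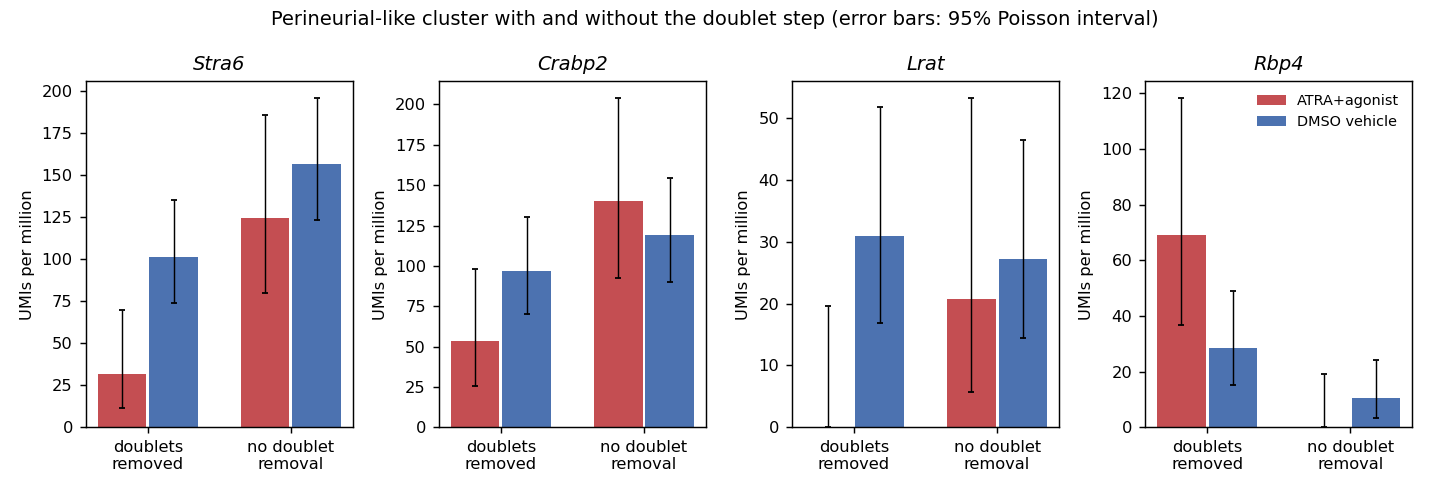
Levels of Stra6, Crabp2, Lrat and Rbp4 in perineurial-like cells, as CPM with 95% Poisson intervals, after doublet removal (84 ATRA+agonist and 134 vehicle cells) and without it at resolution 1.6 (31 and 78 cells). The Stra6 bars are 32.0 and 101 on the left and 125 and 157 on the right, where the intervals overlap.

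The genes also met in single perineurial-like cells. Of the 134 vehicle cells 25 had a Stra6 UMI and 17 a Crabp2 UMI, and 11 had both. Of the 7 cells with Lrat 5 also had Stra6. Of the 84 ATRA+agonist cells 5 had a Stra6 UMI and 6 a Crabp2 UMI, 1 had both, and none had Lrat. The cells with both Stra6 and Crabp2 had a median of 6059 UMIs against 2056.5 over all vehicle cells of the class. In FAP-like cells Stra6 and Rbp4, the receptor and its ligand, were seen together in 2 of the 20 vehicle cells with Stra6, and in none of 12 with ATRA+agonist.

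The genes with the most similar pattern were ranked by Pearson correlation of log2(CPM + 10) with each of the 5 genes over 44 points, 22 clusters in each of 2 libraries that share depth and composition. For Stra6 they were Foxd1, a forkhead transcription factor (0.99), Tenm2 (0.97), the tight junction gene Cldn1 (0.95), Grin2b (0.95) and Shisa3 (0.91). For Rbp4 they were the proteoglycan gene Lum (0.95), the carboxylesterase Ces1d (0.93), Qprt (0.93), Cxcl14 (0.93) and Dpep1 (0.92). For Crabp1 they were the Wnt inhibitor Wif1 (0.81), S100a5 (0.80), Shisal2b (0.79), C1ql3 (0.79) and Crtac1 (0.77). For Crabp2 they were Lypd2 (0.88), the channel gene Hcn4 (0.86), Slc9b2 (0.80), Itih2 (0.77) and Efnb3 (0.77). For Lrat they were lower, from 2200002D01Rik (0.74) through Lhx6, Srarp and Gm11730 to Efnb1 (0.69). Between members the highest value was 0.62, for Stra6 and Rbp4, and the next was 0.58, for Stra6 and Crabp2.

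Other carriers and uptake genes had their own classes. Rbp7 and Fabp5, the latter a carrier of retinoic acid, were highest in endothelial-like cells, Rbp7 at 177 CPM with ATRA+agonist and 254 CPM with vehicle and Fabp5 at 661 and 588 CPM. The lipid uptake genes Cd36, Scarb1 and Lpl were also highest there. Stra6l, the relative of Stra6, had 17 and 18 UMIs in all kept cells, and Rbp2 had none. The hydrolase Ces1d was in FAP-like cells, at 70.0 and 57.4 CPM, beside Rbp4, and the isomerohydrolase Rpe65 of the visual cycle had no UMI in any kept cell.

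Genes known to be induced by retinoic acid showed no common rise in FAP-like, endothelial-like or tenocyte-like cells of the ATRA+agonist library. In FAP-like cells 6 of the 9 listed genes had enough UMIs, none passed 2-fold in either direction, where 2.22% of all genes were at least 2-fold higher and 5.33% lower, and their median log2 ratio was -0.44 against 0.00 over all genes. Rarb was at 13.6 and 19.9 CPM, and Cyp26b1, which breaks retinoic acid down, at 46.4 and 87.1 CPM. The receptor tyrosine kinase gene Ret went the other way, at 46.4 and 30.8 CPM (log2 ratio 0.59, 0.41 to 0.77). In endothelial-like cells 7 were tested, none passed 2-fold, where 3.7% of all genes were at least 2-fold higher and 4.16% lower, and the median was -0.18 against 0.08 over all genes. Rarb was at 14.0 and 8.23 CPM there (log2 ratio 0.76, 0.31 to 1.22) and Dhrs3, a retinal reductase, at 209 and 151 CPM. Tgm2, a transglutaminase, was at 183 and 331 CPM (log2 ratio -0.86, -0.95 to -0.76). In tenocyte-like cells 6 were tested, 1 was at least 2-fold lower and none higher, where 8.38% of all genes were lower and 3.62% higher. That gene was Cyp26a1, at 4.91 and 14.9 CPM (log2 ratio -1.60, -3.13 to -0.37). In MuSC-like cells 6 were tested, with a median of -0.16 against 0.05 over all genes. Of them 1 was at least 2-fold lower and none higher, where 3.69% and 4.60% of all genes were. In mast cell-like cells 3 were tested, with a median of 0.49 against 0.00. That class had the dendritic cell marker Xcr1 among its leading genes and was not of mast cells alone. At a resolution of 1.6 there were 107 and 53 mast cell-like and 68 and 46 dendritic-like cells. By their own markers only 14 and 3 cells were mast cell-like. In smooth muscle or pericyte-like cells 5 were tested, with a median of -0.62 against 0.04.

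The lists of carriers, of uptake genes, of ester formation and hydrolysis and of retinol and retinal oxidation held no gene past 2-fold in FAP-like or endothelial-like cells. In FAP-like cells 17 genes of these 4 lists were tested, and their list medians lay between -0.37 and -0.10, against 0.00 over all genes. There 2.22% of all genes were at least 2-fold higher and 5.33% lower. In endothelial-like cells 12 were tested, with list medians between -0.52 and 0.12, against 0.08 over all genes. There 3.7% of all genes were higher and 4.16% lower. In tenocyte-like cells 2 of 6 retinol and retinal oxidation genes were at least 2-fold lower and none higher, where 8.38% of all genes were lower and 3.62% higher. Genes of these lists past 2-fold were also found in other classes, mast cell-like and perineurial-like cells among them. Adh1, an alcohol dehydrogenase that oxidizes retinol, was highest in FAP-like cells, at 99.5 and 119 CPM. The retinaldehyde dehydrogenase Aldh1a1 was at 129 and 143 CPM there and was highest in tenocyte-like cells, at 138 and 225 CPM. Its relative Aldh1a3 was at 21.5 and 15.3 CPM in FAP-like cells, with a log2 ratio of 0.49 (0.23 to 0.75).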

How the data were processed

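Mouse hindlimb muscle cells were measured in 2 libraries. The files that the authors deposited list unnormalized counts of UMIs for every gene in every barcode. The reads, 10x Genomics 3-prime reads, were counted against mm10 (GRCm38) by Cell Ranger 7.2.0. Whether intronic reads were counted and which annotation was used are not given in the sources used here. A UMI marks 1 molecule, so PCR copies were counted once. Summed UMIs were 65197625 with ATRA+agonist and 109343486 with DMSO vehicle, and no other column of values was used.

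Barcodes with 300 to 5000 genes, under 20% mitochondrial UMIs and under 0.25% hemoglobin beta UMIs were kept, the limits of the study. A rebuilt doublet score (20% artificial doublets, neighbors 1% of cells) then removed the top 7.5% per library. Without retinoid, mitochondrial, ribosomal and hemoglobin genes, 2000 variable genes, 30 principal components and 20 neighbors gave Louvain clusters at a resolution of 0.8 (python-igraph 0.11.9). UMIs were summed per class and library. Levels have exact Poisson intervals, shares have exact Clopper-Pearson intervals, and log2 ratios have exact conditional intervals (scipy 1.17.1), all at 95%. A ratio needed 10 UMIs over both libraries and 20 cells in each, and a count of 0 was taken to allow 3. The ratio script was tested on simulated data. Neither group has a replicate, so there is no p-value and no test between mice. The 5 genes, the lists, the markers and the rule for genes of similar pattern (the 5 highest correlations among genes with at least 100 UMIs) were chosen with earlier results of these data known. Alternatives were other filters, doublet rates, resolutions, scalings and class assignments, and a few were chosen after seeing the data. Results on a few genes are not reported here.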

Additional observations from a re-analysis of the deposited data

Results flagged for a closer look

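Rbp4 differed between the libraries in opposite directions in 2 clusters of FAP-like cells. The log2 ratio of ATRA+agonist to DMSO vehicle was 0.41 in cluster 5 (Gdf10, Fst), from 184 UMIs in each library, and -0.41 in cluster 1 (Cxcl14, Smoc2), from 319 and 382 UMIs. Both intervals leave out 0, and the difference between the clusters was not tested, since each library is 1 sample. Crabp2 stood out in barcodes outside the comparisons, those with over 5000 genes. There it had 26 UMIs in 76 ATRA+agonist barcodes and 3 UMIs in 75 vehicle barcodes, a log2 ratio of 3.16 (1.45 to 5.53), but 21 of the 26 UMIs were in 1 barcode.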

How the results depend on the processing

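No paired analysis was possible because each group is 1 library. Of 150 ratios recomputed under an alternative, 135 stayed within the counting interval of the value reported, and Rbp4 in FAP-like cells stayed between -0.15 and -0.01. Many of these intervals are wide and the alternatives share many of their cells, so the count is no measure of stability. Ratios that could not be formed are not among the 150. The perineurial-like class was not formed without doublet removal, without the hemoglobin filter, at 10% mitochondrial UMIs or at resolution 0.4, and some other ratios had too few UMIs. Median-of-ratios scaling lowered perineurial-like ratios by 0.17 and the others by under 0.1. It rests on genes with at least 10 UMIs in each library. Over genes with at least 10 UMIs in both libraries together the perineurial-like median was -0.43. The causes of the changes below were not tested.

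At a doublet rate of 15% the perineurial-like class held 161 and 214 cells, against 84 and 134. FAP-like cells then numbered 1134 and 1381, against 1342 and 1648. The perineurial-like log2 ratios at this rate were 0.037 for Stra6 (reversed), -0.10 for Rbp4 (reversed) and 0.23 for Crabp2. Without doublet removal at resolution 1.6 they were -0.33 for Stra6, 0.24 for Crabp2 and -0.38 for Lrat. Stra6 in FAP-like cells was 0.13 without the hemoglobin filter, a reversed sign from few UMIs with an interval that includes 0. It was -0.0039 without the cluster led by Tenm2 and Apod. Lrat in endothelial-like cells was -0.17 without the interferon cluster. Means of log-normalized values, which lie near 0 for rare genes by construction, gave -0.011 for Stra6 in FAP-like and -0.26 in perineurial-like cells, -0.051 for Crabp1 in glial-like cells, 0.044 for Crabp2 in tenocyte-like cells, and -0.021 and -0.11 for Lrat in endothelial-like and perineurial-like cells.

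Shares of UMIs moved too. Stra6 in FAP-like cells had 33.3% of its ATRA+agonist UMIs without doublet removal at either resolution, 42.9% at a minimum of 500 genes, 22.7% (vehicle 8.70%) at a doublet rate of 15% and 22.6% (vehicle 8.64%) without the hemoglobin filter. Rbp4 in FAP-like cells had 75.6% and 68.3% at a doublet rate of 15%, 92.4% and 90.9% without the hemoglobin filter, 90.3% and 94.9% in thinned cells, 93.9% of ATRA+agonist UMIs without doublet removal at resolution 1.6, and 99.1% of vehicle UMIs with cells assigned by their own markers. Crabp2 in FAP-like cells had 24.8% of its ATRA+agonist UMIs without doublet removal at either resolution and 25% in thinned cells. In perineurial-like cells it had 24.8% without doublet removal at resolution 1.6, 25.7% with own markers, 25% in thinned cells and, with vehicle at a doublet rate of 15%, 22.4%. Lrat in endothelial-like cells had 76.5% and 68.9% without doublet removal at either resolution, 84.3% and 72.03% without the hemoglobin filter, 100% (vehicle 92.6%) in thinned cells, and for ATRA+agonist 100% at a doublet rate of 15%, 82.9% with no upper limit on genes and 83.3% at resolutions of 0.4 and 1.6.

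Shares of cells with a UMI fell in cells thinned to 1000 UMIs, which follows from fewer UMIs: to 0.0746% and 0.486% for Stra6, 3.95% and 4.37% for Rbp4 and 0.224% and 0.182% for Crabp2 in FAP-like cells, 2.55% and 1.20% for Crabp1 in tenocyte-like cells, 0.492% and 1.08% for Lrat in endothelial-like cells, and 5.41% for Crabp2 in vehicle perineurial-like cells. At a doublet rate of 15% they were 0.441% and 0.145% for Stra6 and 19.8% and 18.2% for Rbp4 in FAP-like cells and 2.34% for Crabp2 in vehicle perineurial-like cells, and without the hemoglobin filter 0.352% for Stra6 in vehicle FAP-like cells. For Lrat with ATRA+agonist the share was 1.87% without doublet removal and 1.88% at resolution 1.6. For Crabp2 in perineurial-like cells it was 32.3% and 28.2% without doublet removal at resolution 1.6, 31.4% and 26.6% with own markers, and 27.6% for vehicle with own markers after doublet removal.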
